A study of Homo sapiens with 12 samples.

Results

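The genes described here are 43 interferon-stimulated genes, a set whose transcription type I interferons are known to raise, followed through cells treated with 2 kinase inhibitors. They were chosen by name from 56140 gene symbols: the ISG15 system, the IFIT, OAS, IFI and IFITM families, the MX proteins, RNA sensors, antiviral enzymes, further effectors, the PARP9 complex, and STAT and IRF factors. The cells were 143B, a human osteosarcoma cell line labelled wild-type, and the RNA libraries form 4 groups of 3. One group received 1.0 µM ceritinib, an inhibitor of the kinase ALK, and another 1.0 µM crenolanib, an inhibitor of PDGF receptors and FLT3. The combination group received both drugs at 1.0 µM each, and the control group received the solvent DMSO. All groups were treated for 48 h. The treatment label calls the 3 libraries of a group biological replicates, and it names no separate thaw or passage. All 4 groups are cultures of 1 line, so the values describe 143B cells.

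Type I interferons bind a receptor built from IFNAR1 and IFNAR2, and the kinases TYK2 and JAK1 on that receptor then phosphorylate STAT proteins, STAT2 among them. The phosphorylated STATs join IRF9 and bind a DNA sequence called the interferon-stimulated response element, or ISRE, near the start of their target genes. Some of these genes can also be switched on without interferon, by IRF3 after viral RNA or DNA is sensed, or by IRF1. Their products degrade or sequester viral RNA, tag proteins with ISG15, or feed back on the pathway.

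The upstream sequences of 5 of these genes are shown. They were picked from the tested genes with a matched promoter, 4 that hold the response element letters and DTX3L, which lacks them. Within each kind, genes called in the most comparisons with DMSO came first, then those with the smallest adjusted p, as defined below. Each is the 250 bases before the annotated start, from RefSeq on GRCh38.p14, written 5′ to 3′ on the strand of the gene. Capitals mark each match to GAAANNGAAA, the core letters of the ISRE, on either strand, so a match on the other strand reads as its reverse complement. The first 4 hold the letters and DTX3L does not. ISG15 encodes the ubiquitin-like modifier, IFI44 a microtubule-associated protein, HERC5 the ligase that attaches ISG15, SAMD9 a growth-restraining antiviral factor, and DTX3L a ubiquitin ligase.
ISG15, chr1:1013247-1013496, plus strand: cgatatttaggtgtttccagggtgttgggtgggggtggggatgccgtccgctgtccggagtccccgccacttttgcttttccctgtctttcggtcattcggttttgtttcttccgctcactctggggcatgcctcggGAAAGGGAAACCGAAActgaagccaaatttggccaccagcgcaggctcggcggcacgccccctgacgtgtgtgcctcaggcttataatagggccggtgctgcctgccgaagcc
IFI44, chr1:78649539-78649788, plus strand: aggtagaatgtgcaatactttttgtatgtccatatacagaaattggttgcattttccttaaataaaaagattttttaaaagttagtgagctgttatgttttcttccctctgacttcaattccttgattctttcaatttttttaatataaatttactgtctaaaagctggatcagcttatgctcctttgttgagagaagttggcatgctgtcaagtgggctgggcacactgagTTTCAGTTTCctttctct
HERC5, chr4:88456869-88457118, plus strand: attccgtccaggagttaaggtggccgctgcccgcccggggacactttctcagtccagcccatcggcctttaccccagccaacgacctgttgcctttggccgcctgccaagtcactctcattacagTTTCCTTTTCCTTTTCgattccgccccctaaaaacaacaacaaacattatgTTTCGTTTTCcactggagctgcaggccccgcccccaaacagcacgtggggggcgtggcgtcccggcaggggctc
SAMD9, chr7:93117980-93118229, minus strand: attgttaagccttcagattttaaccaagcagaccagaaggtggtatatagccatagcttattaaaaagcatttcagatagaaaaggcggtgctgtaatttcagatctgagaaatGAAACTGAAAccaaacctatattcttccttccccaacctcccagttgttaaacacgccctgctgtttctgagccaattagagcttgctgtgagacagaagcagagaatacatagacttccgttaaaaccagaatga
DTX3L, chr3:122564088-122564337, plus strand: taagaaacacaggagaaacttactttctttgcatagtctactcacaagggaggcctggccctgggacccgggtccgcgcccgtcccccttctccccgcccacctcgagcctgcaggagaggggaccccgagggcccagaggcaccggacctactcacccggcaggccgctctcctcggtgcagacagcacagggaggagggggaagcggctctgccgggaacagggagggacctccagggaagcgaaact

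RefSeq promoters were matched for 35 of the 43 genes, with DDX58 under its newer symbol RIGI. GAAANNGAAA occurred within 250 bases upstream in 21 of these 35 (60.0%), against 3.71% of the 27305 genes in the RefSeq table. The motif TTCNNNGAA, the core of the gamma-activated sequence, or GAS element, occurred in 9 of the 35 (25.7%), against 8.09% of all genes. With 1 base of the ISRE letters allowed to differ, 28 of the 35 (80.0%) matched, against 33.8% of all genes. The ISG15 promoter holds 2 matches that overlap, which start 113 and 107 bases before the start of the gene, and the HERC5 promoter holds 3. A match describes these letters only and says nothing of binding.

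Estimated depth was 23.2 to 28.2 M fragments in ceritinib libraries, 22.7 to 24.1 M in crenolanib libraries and 19.6 to 22.1 M in combination libraries, against 23.9 to 26.5 M in DMSO libraries. The unit is FPKM, fragment counts scaled to transcript length and library depth, and 3 fragments in a transcript of 1 kb correspond to 0.106 to 0.153 FPKM. Depths were read from the spacing of the lowest values, and these limits cover counting error only. The combination libraries stood apart. Across 10565 protein-coding genes, the Spearman correlation between the log2 ratio to the DMSO mean and transcript GC content was 0.663 to 0.696 in the 3 combination libraries and -0.153 to 0.226 in the others. The same ratio correlated with transcript length at -0.436 to -0.445 in the combination libraries. Genes are not independent replicates, so these are descriptions. The part of this trend in the results was not tested, and values after a GC and length correction stand beside the deposited ones. Of the markers of osteoblast and mesenchymal cells, 6 of 10 reached 1 FPKM in at least 3 libraries: RUNX2, SPARC, TWIST1, VIM, CDH11 and CDH2. COL1A1, COL1A2, ALPL and IBSP did not, and the bone protein gene IBSP was listed at 0 in all 12. Of 11 immune cell markers CD68 alone reached that level, and CLEC4C and TYROBP were listed at 0 in all libraries. The 11 summed to 19.8 to 28.6 FPKM in ceritinib, 20.4 to 21.6 in crenolanib and 30.3 to 37.2 in combination libraries, against 25.9 to 30.2 in DMSO libraries. Of 5 epithelial markers EPCAM, KRT8 and KRT18 reached 1 FPKM, and the 5 summed to 343.0 to 352.8 FPKM in ceritinib, 341.9 to 362.3 in crenolanib and 555.4 to 568.8 in combination libraries, against 371.1 to 401.1 in DMSO libraries. Of 4 endothelial markers none reached it. All 12 libraries are cultures of 1 cell line, so these sums were read as expression of the marker genes in that line, not as shares of cell kinds. Whether any other cells were present was not tested. In bulk RNA, fewer cells that express a gene and less RNA of it per cell cannot be told apart.

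A gene was tested when 3 or more of the 12 libraries reached 1 FPKM, which 27 of the 43 genes and 11944 genes in all did. Changes are differences of mean log2(FPKM + 1), which understate the change of genes near or under 1 FPKM, and a gene was called when its limma p, adjusted over all genes tested, was under 0.05. In ceritinib cells 8 of the 27 rose and 3 fell, against 20.3% and 16.3% of all genes tested. IFIT1 and ISG20 passed that filter through the combination libraries alone, OASL through them and 1 crenolanib library, and IFIT2 and IRF7 with no DMSO library at 1 FPKM, so a change of these genes was needed for them to be counted among the 27. With no filter the ceritinib calls of ISG15, IFIT5 and IFI44 were lost, and that of IFIT5 also with a pseudocount of 0.1 (limma adjusted p = 0.0543). The 8 rises are 29.6% of the 27, and the median change of the 27 was 0.10, beside 0.01 over all genes. On a TPM scale, where each library is rescaled to the same sum, 5 rose and 6 fell in ceritinib cells, against 11.2% and 25.0% of all genes. In crenolanib cells 11 of 27 rose (40.7%) and none fell, against 13.0% and 13.0% of all genes, and the median was 0.17 beside 0.00. In combination cells 16 rose and 9 fell, against 36.8% and 50.9% of all genes, and the median was 0.50 beside -0.16. After the GC and length correction 17 rose and 7 fell in combination cells, against 39.5% and 40.8% of all genes, with medians of 0.34 and -0.01. On the TPM scale 15 rose and 9 fell in combination cells, against 31.4% and 56.2% of all genes, and with median-of-ratios scaling 17 rose and 8 fell, against 44.3% and 44.1%. With no filter 42 of the 43 genes were tested, and 19 rose and 12 fell, against 16.9% and 27.6% of all genes. The GC and length correction kept 14 of the 16 rises and 5 of the 9 falls, and 4 genes passed in the opposite direction. How many calls of all genes it kept or turned is not given here, so these counts stand beside no such share. Because 87.7% of all genes were called in combination cells, being called there sets no gene of the set apart. The 3 comparisons share the DMSO libraries, so their results are not independent of each other.

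**Figure D1:**
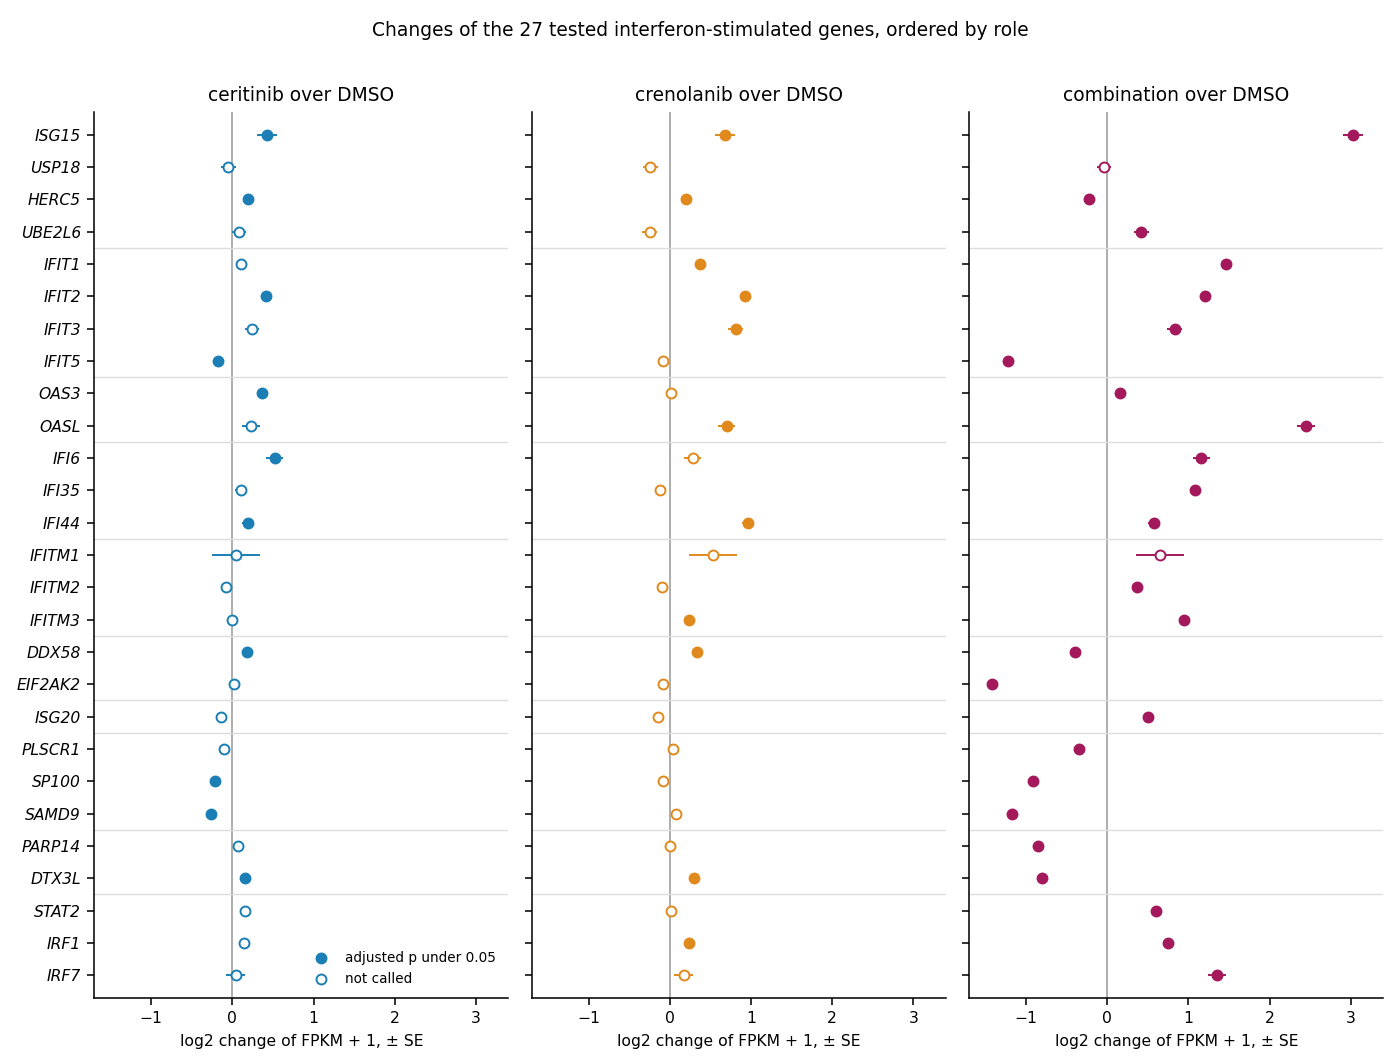
Log2 change of FPKM + 1 for the 27 tested genes, with the standard error of the fit as bars, in ceritinib, crenolanib and combination cells over DMSO cells; filled points were called and grey lines separate the roles. Crenolanib points are called on the higher side only, and the combination panel holds 16 called rises and 9 called falls.

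The ISG15 system attaches the small modifier ISG15 to other proteins and removes it again. ISG15 had 10.9, 7.55 and 7.72 FPKM in ceritinib libraries, 9.25, 11.8 and 10.5 in crenolanib libraries and 65.0, 54.7 and 53.2 in combination libraries, against 6.39, 6.34 and 5.74 in DMSO libraries. No treated library overlapped the DMSO libraries, and the combination libraries lay far above all others. ISG15 rose by 0.43 ± 0.121 on the log2 scale (SE, n = 3 each) in ceritinib cells (limma adjusted p = 0.0164) and by 0.68 in crenolanib cells (limma adjusted p = 0.00171). In combination cells it rose by 3.03 (limma adjusted p = 1.02e-10), a 9.36-fold ratio of mean FPKM, and by 2.21 after the GC and length correction. Its transcript has a GC content of 63.4%, in the range where all genes of the combination libraries tended higher. The ceritinib call was lost without ceritinib replicate 1 (log2 0.27, limma adjusted p = 0.0518) and without DMSO replicate 3 (log2 0.38, limma adjusted p = 0.0588).

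HERC5, the ligase that places ISG15 on its targets, had 3.79 to 4.11 FPKM in ceritinib libraries, 3.75 to 4.07 in crenolanib libraries and 2.59 to 2.73 in combination libraries, against 3.06 to 3.49 in DMSO libraries. It rose by 0.19 with ceritinib and by 0.20 with crenolanib. In combination cells the change was -0.22 as deposited and 0.25 after the correction, both past the threshold, so its direction there turns with the correction, and the call was lost with median-of-ratios scaling (-0.07). The ceritinib call was lost on the TPM scale. UBE2L6, the enzyme that hands ISG15 to HERC5, was 3.86 to 3.97 FPKM in combination libraries, above the 2.13 to 3.03 FPKM of DMSO libraries, a change of 0.42 that became -0.15 and missed the threshold after the correction. USP18, the protease that removes ISG15 and also restrains the interferon receptor, was not called in any treated group: its mean was 1.82 FPKM in ceritinib, 1.49 in crenolanib and 1.86 in combination cells, against 1.93 in DMSO cells. After the correction USP18 was lower in combination cells, by 0.23 (limma adjusted p = 0.035). USP18 has a near-identical copy, USP41, between which reads may have been split. HERC6, a relative of HERC5, stayed under the filter with at most 1.06 FPKM. It had 0.389 to 0.477 FPKM in combination libraries against 0.61 to 0.667 in DMSO libraries.

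The IFIT proteins bind viral RNA that lacks the host's cap methylation and block its translation. IFIT2 had 0.755, 0.913 and 0.975 FPKM in ceritinib libraries, 1.57, 1.69 and 1.70 in crenolanib libraries and 2.22, 2.34 and 2.16 in combination libraries, against 0.421, 0.353 and 0.44 in DMSO libraries. The 4 groups did not overlap, and DMSO was the lowest. IFIT2 rose by 0.42 in ceritinib cells (limma adjusted p = 0.000102), by 0.92 in crenolanib cells (limma adjusted p = 4e-07) and by 1.20 in combination cells (limma adjusted p = 3.22e-10). The ratio of mean FPKM to DMSO was 2.18 with ceritinib, 4.08 with crenolanib and 5.53 with both, and the corrected change in combination cells was larger, 1.78.

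IFIT1 was listed at 0.46, 0.372 and 0.373 FPKM in ceritinib libraries, 0.715, 0.616 and 0.745 in crenolanib libraries and 2.41, 2.66 and 2.75 in combination libraries, against 0.296, 0.277 and 0.355 in DMSO libraries. Its level passed the filter through the combination libraries alone, so a rise there was needed for it to be tested. That rise was 1.46 as deposited and 2.17 corrected, with an 8.43-fold ratio of means. The crenolanib change of 0.37 was called (limma adjusted p = 0.000601) and the ceritinib change of 0.10 was not. IFIT3, which binds IFIT1 and steadies it, had 1.09 to 1.65 FPKM in ceritinib, 2.21 to 2.75 in crenolanib and 2.31 to 2.77 in combination libraries, against 0.867 to 1.05 in DMSO libraries. It rose by 0.81 with crenolanib and by 0.83 with both drugs, and the ceritinib change of 0.24 missed the threshold (limma adjusted p = 0.0553). That change was called with a pseudocount of 0.1 (0.41, limma adjusted p = 0.037) and without ceritinib replicate 3 (0.31) or crenolanib replicate 3 (0.24).

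IFIT5, the family member that binds RNA ends with a triphosphate, went the other way. It had 5.0, 4.69 and 4.85 FPKM in ceritinib libraries, 5.69, 4.91 and 5.12 in crenolanib libraries and 1.80, 2.03 and 1.70 in combination libraries, against 6.04, 5.26 and 5.53 in DMSO libraries. Crenolanib libraries overlapped DMSO libraries, and the combination libraries lay well under all others. IFIT5 fell by 1.22 on the log2 scale in combination cells (limma adjusted p = 7.95e-10), and by 0.44 after the correction, at a GC content of 37.4%. Its fall by 0.18 with ceritinib was lost when any ceritinib library, crenolanib replicate 3 or DMSO replicate 1 or 3 was left out, with limma adjusted p between 0.0505 and 0.154. IFIT1, IFIT2 and IFIT3 lie across from LIPA on the opposite strand. The labels describe strand-specific libraries, but whether the counting used the strand is not given in the sources used here.

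**Figure D2:**
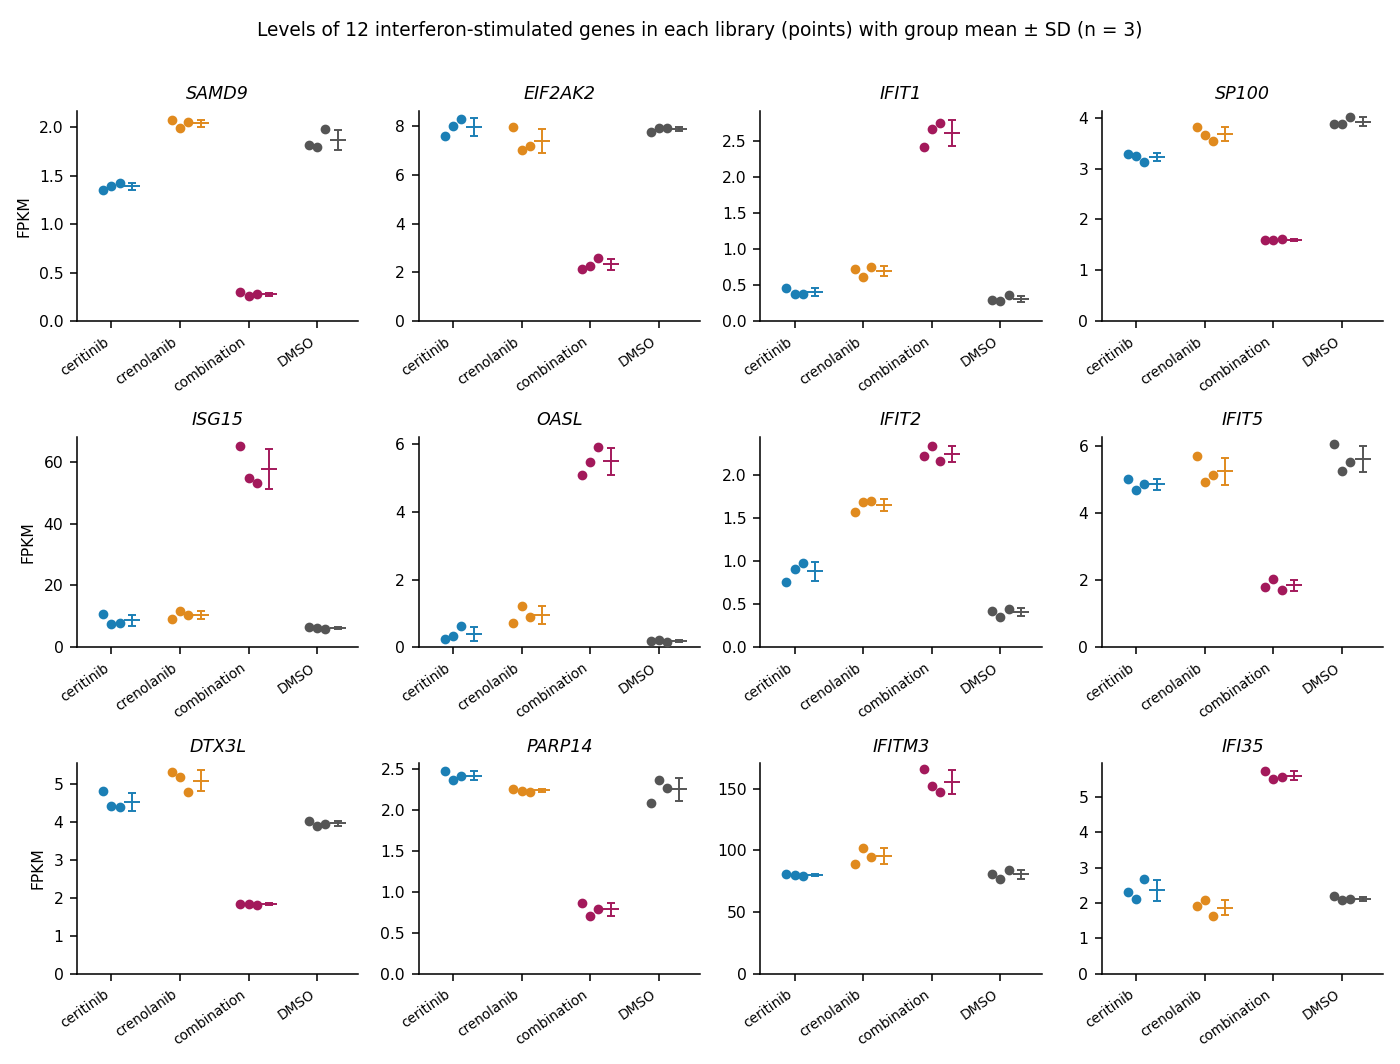
FPKM in each library (points) of the 12 genes with the smallest adjusted p in a comparison with DMSO, with the mean ± SD of 3 libraries beside the points, on axes that start at 0. ISG15, OASL, IFIT1, IFIT2, IFITM3 and IFI35 were highest in combination libraries, and SAMD9, EIF2AK2, SP100, IFIT5, DTX3L and PARP14 were lowest there.

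The OAS enzymes make a short adenylate messenger on double-stranded RNA that activates RNase L, while OASL has lost that activity and boosts RIG-I instead. OASL had 0.234, 0.327 and 0.625 FPKM in ceritinib libraries, 0.711, 1.23 and 0.882 in crenolanib libraries and 5.11, 5.47 and 5.93 in combination libraries, against 0.18, 0.228 and 0.149 in DMSO libraries. No treated library overlapped DMSO, and ceritinib replicate 1 lay just above the highest DMSO library. OASL rose by 0.70 with crenolanib (limma adjusted p = 0.000659) and by 2.45 with both drugs (limma adjusted p = 2.56e-10). It passed the filter through the combination libraries and 1 crenolanib library, so a rise was needed for it to be tested. The ratio of mean FPKM to DMSO was 29.7 in combination cells, and the correction left the change at 2.41. The ceritinib change of 0.23 was not called (limma adjusted p = 0.125), and with a pseudocount of 0.1 it was 0.73 and called (limma adjusted p = 0.0445). OAS3, which senses long double-stranded RNA, had a pattern of its own: 5.82 to 6.15 FPKM in ceritinib libraries, 4.35 to 4.66 in crenolanib and 4.97 to 5.25 in combination libraries, against 4.04 to 4.76 in DMSO libraries. It rose by 0.37 with ceritinib (limma adjusted p = 0.000129) and changed by 0.01 with crenolanib. Its rise of 0.16 with both drugs was not called on the TPM scale (0.03, limma adjusted p = 0.588), and was 0.33 with median-of-ratios scaling and 0.40 with quantile normalization. OAS1 and OAS2 stayed under the filter, OAS1 at no more than 0.219 FPKM and OAS2 at no more than 0.018 FPKM.

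Among the IFI genes, IFI6 encodes a small protein of the endoplasmic reticulum and mitochondria. It had 2.53 to 3.51 FPKM in ceritinib, 2.09 to 2.53 in crenolanib and 4.84 to 5.63 in combination libraries, against 1.45 to 2.17 in DMSO libraries. It rose by 0.52 with ceritinib (limma adjusted p = 0.00214) and by 1.16 with both drugs, which the correction lowered to 0.61. IFI44 had the largest crenolanib change on the log2(FPKM + 1) scale among the 27 genes, with 3.01, 2.59 and 2.58 FPKM in crenolanib libraries against 0.892, 1.02 and 0.835 in DMSO libraries. That was a rise of 0.96 (limma adjusted p = 1.3e-06), a 2.97-fold ratio of means. In combination libraries IFI44 had 1.81, 1.67 and 2.05 FPKM, between those of crenolanib and DMSO, a rise of 0.57 as deposited and 1.05 corrected. Ceritinib libraries had 1.10 to 1.28 FPKM, a rise of 0.19 whose call was lost on the TPM scale (limma adjusted p = 0.0679) and without ceritinib replicate 2 or 3 or DMSO replicate 1 or 3 (limma adjusted p between 0.0829 and 0.126).

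IFI35, a partner of NMI in innate signalling, had 2.30, 2.10 and 2.68 FPKM in ceritinib libraries, 1.91, 2.07 and 1.64 in crenolanib libraries and 5.75, 5.50 and 5.58 in combination libraries, against 2.19, 2.07 and 2.10 in DMSO libraries. It was far higher in the combination libraries and within or near the DMSO range with each drug alone. The rise was 1.08 as deposited (limma adjusted p = 5.8e-09) and 0.41 corrected. IFI27 and IFI44L, which are among the genes most raised by interferon in many cells, stayed near 0. IFI27 reached at most 0.0986 FPKM, and IFI44L was listed at 0 in 10 of the 12 libraries.

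The IFITM proteins sit in membranes and hinder the entry of viruses. IFITM3 was the most abundant of the set, with 80.9, 80.0 and 79.2 FPKM in ceritinib libraries, 88.9, 102.2 and 94.8 in crenolanib libraries and 166.3, 152.3 and 147.5 in combination libraries, against 80.6, 77.0 and 84.1 in DMSO libraries. It lay above the DMSO range in every crenolanib and combination library and within it in the ceritinib libraries. IFITM3 rose by 0.24 with crenolanib (limma adjusted p = 0.00662) and by 0.94 with both drugs (limma adjusted p = 2.78e-09), or by 0.34 after the correction. IFITM2 had 72.4 to 81.7 FPKM in combination libraries against 58.3 to 62.1 in DMSO libraries, a change of 0.36 as deposited and of -0.16 after the correction, both past the threshold. IFITM1 varied widely within groups: it had 8.62, 4.05 and 4.29 FPKM in ceritinib libraries, 8.49, 10.2 and 5.66 in crenolanib libraries and 6.93, 14.3 and 6.45 in combination libraries, against 5.21, 4.74 and 5.63 in DMSO libraries. None of its changes was called, with 0.65 ± 0.294 (SE) in combination cells (limma adjusted p = 0.0553). Leaving out ceritinib replicate 1, crenolanib replicate 3 or combination replicate 1 or 3 brought its p under the threshold (limma adjusted p between 0.0283 and 0.0474), as did median-of-ratios scaling (0.83) and quantile normalization (0.77). The IFITM genes are close paralogs, and IFITM1 and IFITM2 overlap on the same strand in the annotation, so reads may have been divided between them.

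The RNA sensors recognise viral RNA in the cytoplasm. DDX58, which encodes RIG-I, had 3.81 to 4.06 FPKM in ceritinib, 4.34 to 4.56 in crenolanib and 2.19 to 2.42 in combination libraries, against 3.23 to 3.52 in DMSO libraries. It rose by 0.18 with ceritinib and by 0.33 with crenolanib (limma adjusted p = 0.000195). In combination cells the deposited change was -0.40 and the corrected one 0.37, each past the threshold. EIF2AK2, which encodes the kinase PKR that stops translation on double-stranded RNA, had 7.61, 8.02 and 8.31 FPKM in ceritinib libraries, 7.98, 7.05 and 7.21 in crenolanib libraries and 2.14, 2.28 and 2.57 in combination libraries, against 7.79, 7.95 and 7.92 in DMSO libraries. It stayed near the DMSO level with each drug alone, while every combination library was far lower. EIF2AK2 fell by 1.42 on the log2 scale in combination cells (limma adjusted p = 6.73e-11), at a GC content of 38.7% and a length of 10042 bases, and by 0.34 after the correction. It overlaps GPATCH11 on the opposite strand. IFIH1, which encodes the sensor MDA5, reached at most 0.585 FPKM, and DHX58, a regulator of both sensors, at most 0.0678 FPKM. Neither was tested, and IFIH1 had 0.533 to 0.585 FPKM in combination libraries against 0.354 to 0.424 in DMSO libraries.

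Of the antiviral enzymes and tethers, ISG20, a nuclease that degrades RNA, was tested because of its combination libraries alone. It had 0.474, 0.541 and 0.50 FPKM in ceritinib libraries, 0.523, 0.493 and 0.517 in crenolanib libraries and 1.51, 1.19 and 1.35 in combination libraries, against 0.613, 0.607 and 0.771 in DMSO libraries. The combination libraries were the highest, and those of each single drug lay under the DMSO libraries without a call, although ceritinib was called on the TPM scale (-0.32, limma adjusted p = 0.0335). The combination change was 0.50 as deposited and 0.59 corrected. BST2, the tether that holds budding virus at the cell surface, stayed under the filter, with 0.0278 to 0.0751 FPKM in ceritinib, 0.0683 to 0.227 in crenolanib and 0.22 to 0.522 in combination libraries, against 0 to 0.146 in DMSO libraries. CMPK2, a mitochondrial nucleotide kinase, reached at most 0.247 FPKM, and RSAD2, which encodes viperin, at most 0.0492 FPKM.

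The 3 tested genes among the other effectors fell in combination cells as deposited. SAMD9 had 1.35, 1.39 and 1.42 FPKM in ceritinib libraries, 2.07, 1.99 and 2.05 in crenolanib libraries and 0.294, 0.262 and 0.274 in combination libraries, against 1.82, 1.80 and 1.98 in DMSO libraries. Ceritinib and combination libraries lay under all DMSO libraries, and crenolanib libraries just above them. SAMD9 fell by 0.26 with ceritinib (limma adjusted p = 0.000559) and by 1.17 with both drugs (limma adjusted p = 5.1e-11), and its crenolanib change of 0.08 was not called. Its transcript has the lowest GC content of the tested genes, 36.0%, and the correction brought the combination change to -0.20.

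SP100, a scaffold of PML nuclear bodies, had 3.29, 3.26 and 3.14 FPKM in ceritinib libraries, 3.82, 3.66 and 3.55 in crenolanib libraries and 1.6, 1.59 and 1.62 in combination libraries, against 3.88, 3.88 and 4.02 in DMSO libraries. The combination libraries barely varied and were the lowest. SP100 fell by 0.22 with ceritinib (limma adjusted p = 0.000604) and by 0.92 with both drugs (limma adjusted p = 9.57e-11), or by 0.30 after the correction. PLSCR1, a lipid scramblase, had 4.21 to 4.64 FPKM in combination libraries against 5.73 to 5.91 in DMSO libraries, a change of -0.35 as deposited and 0.19 corrected, both past the threshold. SAMD9L, the neighbour and relative of SAMD9, reached at most 0.476 FPKM and was not tested. It had 0.0482 to 0.0909 FPKM in combination libraries against 0.276 to 0.361 in DMSO libraries.

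PARP9 and DTX3L act as a pair on chromatin and on viral proteins, and PARP14 is an ADP-ribosyltransferase that binds them. DTX3L had 4.82, 4.42 and 4.39 FPKM in ceritinib libraries, 5.32, 5.19 and 4.79 in crenolanib libraries and 1.83, 1.85 and 1.80 in combination libraries, against 4.04, 3.91 and 3.96 in DMSO libraries. Each single drug lay above DMSO, and the combination lay under it, with no overlap. DTX3L rose by 0.16 with ceritinib (limma adjusted p = 0.0137) and by 0.30 with crenolanib (limma adjusted p = 0.000481). It fell by 0.81 on the log2 scale with both drugs (limma adjusted p = 1.59e-09), and by 0.14 after the correction. The ceritinib call was lost on the TPM scale and without ceritinib replicate 1 (limma adjusted p = 0.0612). PARP14 had 2.48, 2.36 and 2.41 FPKM in ceritinib libraries, 2.26, 2.23 and 2.22 in crenolanib libraries and 0.862, 0.70 and 0.794 in combination libraries, against 2.09, 2.37 and 2.27 in DMSO libraries. It was lower in the combination libraries alone, by 0.86 as deposited, and the correction left 0.04, not called. PARP9, which shares a start region with DTX3L on the opposite strand, passed 1 FPKM in 1 library, a ceritinib one at 1.04 FPKM. It was not tested, and had 0.381 to 0.459 FPKM in combination libraries against 0.817 to 0.865 in DMSO libraries.

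Of the 4 transcription factors 3 rose with both drugs, before and after the correction. STAT2, a subunit of the factor ISGF3, had 3.48, 3.91 and 3.55 FPKM in ceritinib libraries, 3.4, 3.09 and 3.15 in crenolanib libraries and 4.98, 5.30 and 5.67 in combination libraries, against 3.46, 2.95 and 3.13 in DMSO libraries. It rose by 0.60 in combination cells (limma adjusted p = 6.13e-07) and by 0.64 after the correction. IRF1, which can switch on part of the set by itself, had 1.16 to 1.21 FPKM in ceritinib, 1.24 to 1.45 in crenolanib and 2.10 to 2.47 in combination libraries, against 0.877 to 1.06 in DMSO libraries. IRF1 rose by 0.23 with crenolanib (limma adjusted p = 0.0109) and by 0.75 with both drugs, or 0.83 corrected. IRF7, which amplifies interferon production, had 3.18 to 4.54 FPKM in combination libraries against 0.804 to 0.973 in DMSO libraries, a rise of 1.35 that became 0.57 after the correction, at the highest GC content of the tested genes, 66.8%. Neither single drug changed IRF7 past the threshold. IRF9, the DNA-binding partner of the STATs in ISGF3, stayed at 0.181 to 0.443 FPKM over all 12 libraries.

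The genes that rose and those that fell in combination cells differed in their transcripts. The 16 that rose had a GC content of 39.1% to 66.8% (median 53.6%) and a median length of 2273 bases. The 9 that fell had a GC content of 36.0% to 44.2% (median 40.5%) and a median length of 4353 bases. IFIT1, IFIT2, IFIT3 and IFI44 rose at a GC content of 44.3% or less, and their changes were larger after the correction. HERC5, DDX58, PLSCR1 and IFITM2 passed the threshold in opposite directions before and after the correction. UBE2L6 and PARP14 also changed sign, but their corrected values missed the threshold. With quantile normalization the combination calls of IFITM2 (0.05) and DDX58 (-0.07) were lost, and the HERC5 value was 0.09, not called.

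**Figure D3:**
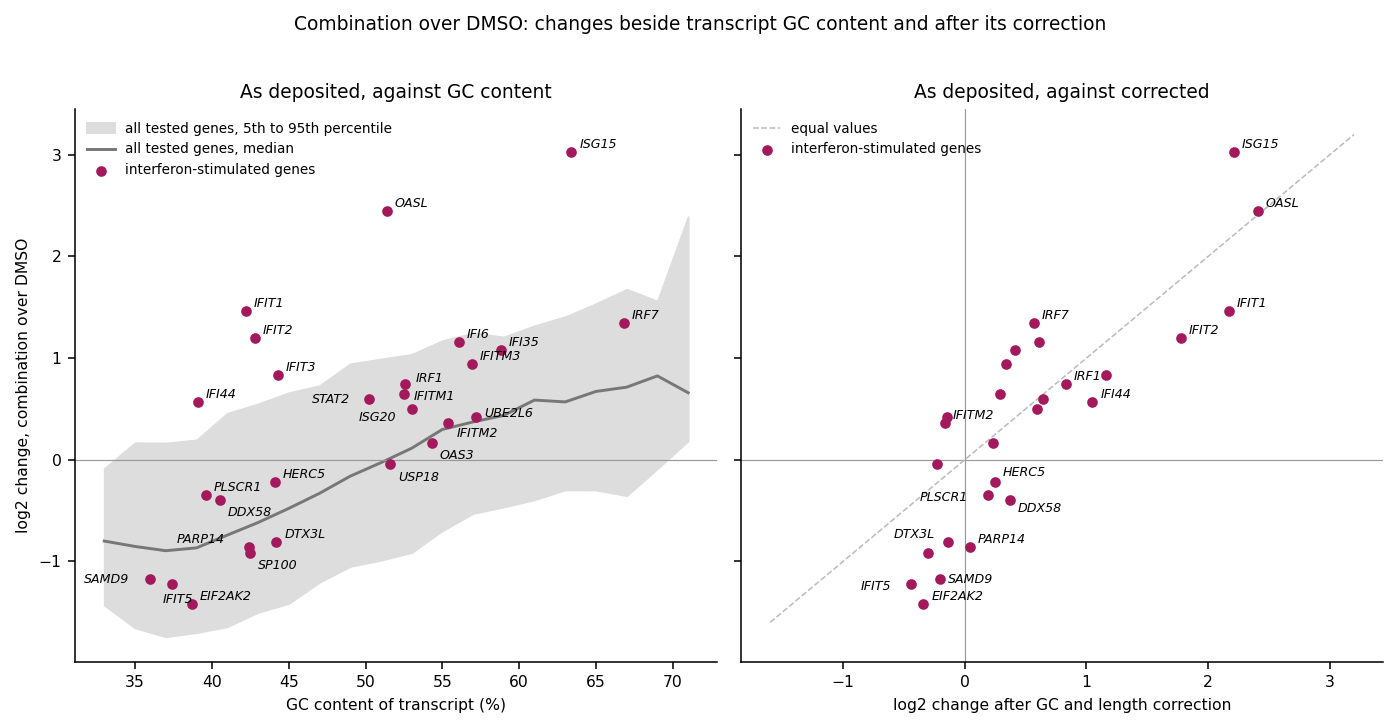
Log2 change in combination over DMSO cells for the 27 tested genes, plotted on the left against transcript GC content, with the median and the 5th to 95th percentile of all tested genes in steps of GC, and on the right against the change after the GC and length correction. ISG15, OASL, IFIT1, IFIT2, IFIT3 and IFI44 lie above the grey band, and HERC5, DDX58, PLSCR1, IFITM2, UBE2L6 and PARP14 change sides of 0 after the correction.

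The 16 genes that were not tested include MX1, OAS1, IFI27, IFI44L and RSAD2, which are widely used as markers of an interferon response. Of the 16, 14 did not reach 1 FPKM in any library, and OAS2, IFI27, IFI44L, MX2, DHX58, RSAD2 and XAF1 were under 0.1 FPKM in all 12. MX1, a GTPase that blocks influenza virus, had 0.0831 to 0.148 FPKM in ceritinib, 0.0679 to 0.101 in crenolanib and 0.0719 to 0.112 in combination libraries, against 0.0835 to 0.114 in DMSO libraries, and the groups overlapped. MX2, which acts on HIV in the nucleus, reached at most 0.0174 FPKM. XAF1, a promoter of cell death, was listed at 0 in all 12 libraries, where 3 fragments would have given 0.0294 to 0.0423 FPKM. OAS2 was listed at 0 in 6 libraries. The promoters of 7 of the 13 matched genes that were not tested held the ISRE letters, as did 14 of the 22 that were tested. In all 3 libraries of a group, 22 of the 43 genes were at or above 1 FPKM with ceritinib, 23 with crenolanib and 25 with both drugs, against 19 with DMSO. Counted by single library, all genes at that level numbered 11423 to 11464 with ceritinib and 11220 to 11283 with crenolanib. They numbered 10284 to 10358 with both drugs, against 11375 to 11420 with DMSO.

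**Figure D4:**
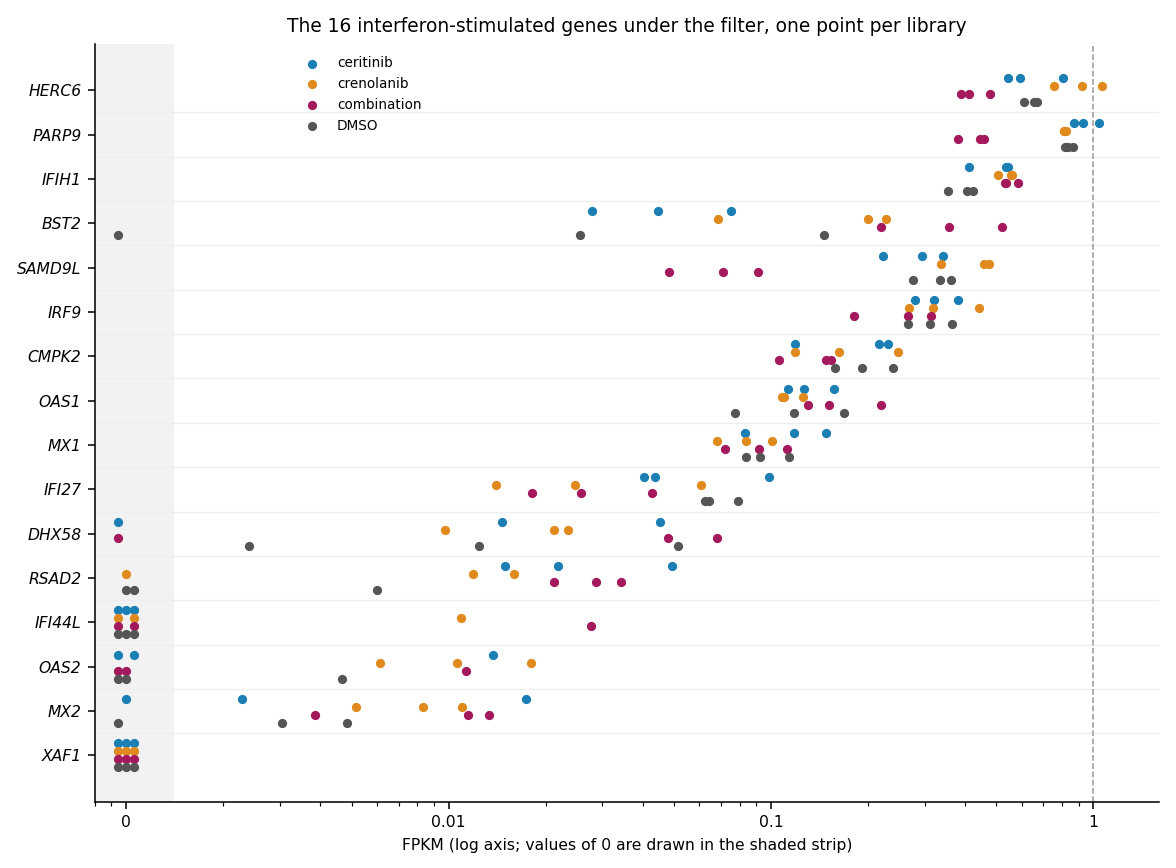
FPKM in each library (points, log axis) of the 16 genes that stayed under the filter, coloured by group, with values of 0 drawn in the shaded strip and the dashed line at 1 FPKM. The MX1 points of the 4 groups overlap near 0.1, BST2 is highest in combination libraries, and all XAF1 points lie in the strip.

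Set against each other, ceritinib and crenolanib differed in 13 of the 27 genes, 3 higher and 10 lower with ceritinib, against 19.4% and 15.4% of all genes tested. The drugs were given at the same dose and time. IFI44 averaged 1.19 FPKM in ceritinib and 2.73 in crenolanib cells, a difference of -0.76 (limma adjusted p = 4.2e-06). IFIT3 differed by -0.57, IFIT2 by -0.50 and OASL by -0.48, all lower with ceritinib. OAS3 went the other way, at 6.02 FPKM in ceritinib and 4.51 in crenolanib cells, a difference of 0.35 (limma adjusted p = 0.000192), and UBE2L6 and IFI35 were also higher with ceritinib. SAMD9 was lower with ceritinib than with crenolanib by 0.35 on the log2 scale (1.39 against 2.04 FPKM). ISG15 differed by -0.25 ± 0.121 (SE), which was not called (limma adjusted p = 0.126). It was called after the correction (-0.33, limma adjusted p = 0.0164) and without ceritinib replicate 1 (-0.41, limma adjusted p = 0.00885). The call for IFI35 was lost after the correction (0.17, limma adjusted p = 0.0622), and without ceritinib replicate 3 or crenolanib replicate 3 (limma adjusted p = 0.0832 and 0.0834), and those for DDX58 and DTX3L without any of several ceritinib or crenolanib libraries.

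Both drugs together were set against each drug alone as well. Over ceritinib cells, 15 of the 27 genes were higher in combination cells and 10 lower, against 35.9% and 51.3% of all genes. Over crenolanib cells, 15 were higher and 10 lower, against 37.4% and 50.1%. ISG15 was higher in combination cells than in ceritinib cells by 2.61 and than in crenolanib cells by 2.35, and OASL by 2.23 and 1.75. IFIT3 in combination cells did not differ past the threshold from crenolanib cells (0.02 ± 0.09 SE, limma adjusted p = 0.83) as deposited, though it was higher by 0.34 after the correction (limma adjusted p = 0.00334). IFI44 in combination cells was lower than in crenolanib cells by 0.39, which the correction turned to 0.05, not called.

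The interaction asks whether the combination change differs from the sum of the changes with each drug. Since it uses the DMSO libraries of all 3 changes, it is not independent of them. It was called for 23 of the 27 genes, 12 above the sum and 11 under it, against 33.8% and 47.7% of all genes, or 81.5% in either direction. After the correction 10 were above the sum and 4 under it, against 35.2% and 34.9%. ISG15 exceeded the sum by 1.93 (3.03 for the combination, 1.10 for the sum), and by 1.11 after the correction. OASL exceeded it by 1.52 (2.45 for the combination, 0.93 for the sum), and by 1.5 corrected. IFIT1 exceeded it by 0.99 and by 1.69 corrected, and IRF7, IFI35, ISG20, STAT2 and IRF1 were also above the sum both before and after the correction. IFIT2 and IFIT3 did not differ from the sum past the threshold as deposited, at -0.13 and -0.22, and the direction for IFIT2 depended on the scale. IFIT2 was above the sum after the correction (0.44, limma adjusted p = 0.000297), and under it on the TPM scale (-0.47, limma adjusted p = 0.00405), with a pseudocount of 0.1 (-0.54, limma adjusted p = 0.00537) and without ceritinib replicate 1 (-0.18, limma adjusted p = 0.0392). DTX3L lay under the sum, with an interaction of -1.27 (limma adjusted p = 1.53e-09), or -0.57 corrected. EIF2AK2, IFIT5 and DDX58 were under the sum in both fits. A sum on the log2(FPKM + 1) scale is compressed for genes near 1 FPKM such as OASL and IFIT1.

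**Figure D5:**
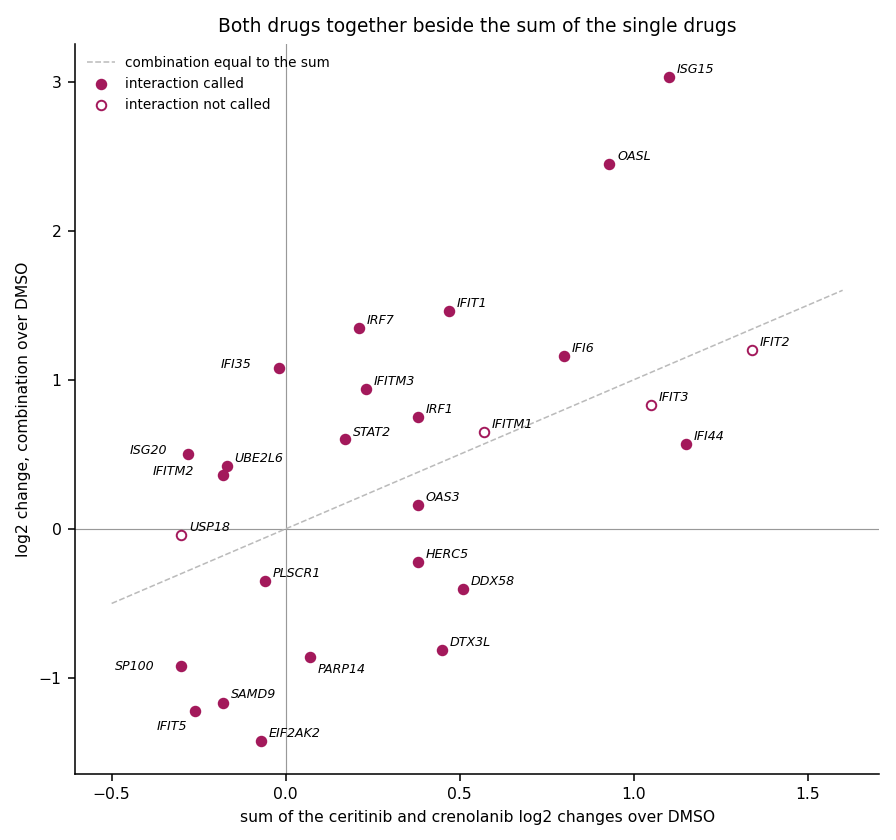
Log2 change in combination over DMSO cells (vertical axis) against the sum of the changes with each drug alone (horizontal axis) for the 27 tested genes, as deposited, with the dashed line where both are equal and filled points where the interaction was called. ISG15 and OASL lie far above the line, IFIT2 and IFIT3 near it, and EIF2AK2 and DTX3L far under it.

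The other genes of the pathway were read from lists by role. Of all genes tested, 20.3% rose and 16.3% fell with ceritinib, 13.0% rose and 13.0% fell with crenolanib, and 36.8% rose and 50.9% fell with both drugs, or 39.5% and 40.8% after the correction. The counts in each list stand against these shares. Of 21 interferon genes none was tested, and 19 were listed at 0 in all 12 libraries. IFNB1, the first interferon that most cells make, was among these, where 3 fragments would have given 0.124 to 0.179 FPKM. IFNA5 reached 0.0291 FPKM and IFNE, an interferon of the reproductive tract, 0.413 FPKM at most. IFNE had 0.0736 to 0.234 FPKM in ceritinib, 0.336 to 0.413 in crenolanib and 0 to 0.0601 in combination libraries, against 0.125 to 0.262 in DMSO libraries. IFNB1 transcripts were thus not detectable at this depth at 48 h, and no other time was sampled. With IFNB1 listed at 0 in every group, its level under that limit could not be compared between groups. The part of interferon in the rises of the set was not tested.

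Of 10 receptor and kinase genes 9 were tested. With ceritinib 2 rose and none fell, with crenolanib none was called, and with both drugs 3 rose and 5 fell, or 5 and 2 after the correction. The medians of the 9 were -0.02, 0.03 and -0.35. TYK2 rose by 0.17 with ceritinib and by 0.89 with both drugs, or 0.49 corrected. JAK1 averaged 6.49 FPKM in combination against 11.5 in DMSO cells, a fall by 0.74 on the log2 scale, or by 0.27 corrected. The receptor chain IFNAR1 averaged 2.11 FPKM in combination against 5.23 in DMSO cells, a change of -1.01, or -0.20 corrected. IFNAR2 averaged 5.06 against 5.28 FPKM, a change of -0.05 that was not called, and 0.30 corrected, which was. JAK2, a kinase of other cytokine receptors, averaged 0.446 FPKM in combination against 1.86 in DMSO cells, a change of -0.98, or -0.11 corrected, which was not called. IFNGR2, a chain of the interferon gamma receptor, rose by 0.47, or 0.09 corrected, not called. IL10RB, shared with other cytokine receptors, rose by 0.54 with both drugs, or 1.06 corrected.

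Of 19 genes that detect nucleic acids and start interferon transcription, 16 were tested. With ceritinib 3 rose and 1 fell, with crenolanib 4 rose and none fell, and with both drugs 7 rose and 6 fell. The medians of the 16 were -0.02, 0.04 and 0.07. IRF3, the factor that starts IFNB1 transcription, averaged 12.2 FPKM in ceritinib, 10.3 in crenolanib and 23.3 in combination cells, against 10.3 in DMSO cells. It rose by 0.22 with ceritinib (limma adjusted p = 0.00118) and by 1.10 with both drugs (limma adjusted p = 4.96e-11), or 0.61 corrected. MYD88, the adaptor of Toll-like receptors, rose by 0.16 with each drug and by 0.62 with both. TBK1, the kinase that activates IRF3, averaged 0.446 FPKM in combination against 2 in DMSO cells, a change of -1.05, or -0.38 corrected. TRAF6, a ubiquitin ligase under Toll-like receptors, averaged 0.798 FPKM in combination against 2.55 in DMSO cells, a change of -0.98, or -0.26 corrected. AZI2, an adaptor of TBK1, fell by 0.19 on the log2 scale with ceritinib and by 0.94 with both drugs, or changed by -0.10 corrected, not called. IFI16, a DNA sensor, rose by 0.19 with crenolanib and fell by 1.07 on the log2 scale with both drugs, or by 0.29 corrected.

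Of 19 genes that restrain the pathway 14 were tested, and 3 rose and 2 fell with ceritinib, 1 rose and none fell with crenolanib, and 5 rose and 8 fell with both drugs. The medians of the 14 were -0.01, 0.03 and -0.26. PTPN11, which encodes the phosphatase SHP2, averaged 28.4 FPKM in ceritinib, 31.6 in crenolanib and 8.53 in combination cells, against 33.8 in DMSO cells. It fell by 0.25 on the log2 scale with ceritinib and by 1.87 with both drugs (limma adjusted p = 7.77e-13), or by 1.05 corrected. PIAS1, a SUMO ligase, averaged 1.13 FPKM in combination against 4.22 in DMSO cells, a change of -1.29 (limma adjusted p = 1.67e-11), or -0.32 corrected. The phosphatase genes PTPN2 and PTPN1 fell by 0.93 and 0.43 on the log2 scale with both drugs, or by 0.24 and 0.26 corrected. ADAR, which edits double-stranded RNA and so hides it from sensors, averaged 5.07 FPKM in combination against 8.24 in DMSO cells, a change of -0.61, or -0.21 corrected. RNASEH2A, a subunit of an enzyme that clears RNA from DNA, rose by 0.99, or 0.88 corrected. SOCS1, an inhibitor of the receptor's kinases, reached at most 0.11 FPKM.

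Of 47 further interferon-induced genes 29 were tested, and 14 rose and 2 fell with ceritinib, 7 rose and 1 fell with crenolanib, and 19 rose and 10 fell with both drugs, or 21 and 3 after the correction. The medians of the 29 were 0.12, 0.06 and 0.41. GBP3 passed the filter through the ceritinib libraries alone and DDX60 through the crenolanib libraries alone. PSMB9 passed it through ceritinib and combination libraries, with no DMSO library at 1 FPKM. A rise of these genes was thus needed for them to be counted in this list and in the sums over the lists. Over these 4 lists together 22 genes rose and 5 fell with ceritinib, and 12 rose and 13 fell on the TPM scale, where 11.2% and 25.0% of all genes did. With both drugs 34 of the 68 rose and 29 fell, and 40 rose and 22 fell with quantile normalization, where 43.5% and 42.6% of all genes did. LGALS3BP, a secreted glycoprotein, averaged 5.47 FPKM in ceritinib, 6.52 in crenolanib and 12.4 in combination cells, against 3.72 in DMSO cells. It rose by 0.45, 0.67 and 1.51 in these 3 comparisons (limma adjusted p = 4.73e-05, 4.56e-06 and 3.42e-11), and by 0.91 in the last after the correction. APOBEC3G, a cytidine deaminase that mutates retroviral DNA, averaged 4.16 FPKM in ceritinib, 4.88 in crenolanib and 11.2 in combination cells, against 3.65 in DMSO cells. It rose by 0.34 with crenolanib and by 1.39 with both drugs, or 1.13 corrected. PNPT1, a mitochondrial RNA-degrading enzyme, rose by 0.27 with ceritinib and fell by 1.54 on the log2 scale with both drugs, or by 0.79 corrected. APOL2, MOV10 and the immunoproteasome subunit PSMB8 rose with both drugs in either fit. The chemokine genes CXCL10, CXCL11 and CCL5, often strongly induced by interferon, stayed at or under 0.597 FPKM in all libraries and were not tested. CXCL11 had 0.513 to 0.597 FPKM in combination libraries against 0.0336 to 0.104 in DMSO libraries, and CCL5 0.359 to 0.415 against 0 to 0.0716. CXCL10 had 0.0363 to 0.238 FPKM in combination libraries against 0 in DMSO libraries, and 0 to 0.135 in ceritinib libraries.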

How the data were processed

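RNA of 143B cells was measured in 4 groups of 3 libraries. The deposited FPKM values were made by the authors, with 1 value for each gene symbol in a library, and FPKM was inferred from the numbers because the headers name no unit. Per the submitters' processing notes, the tools were FastQC 0.11.2, STAR and StringTie, on the build hg38. Which annotation, strand setting and releases of STAR and StringTie were used is not given in the sources used here. One protocol text among the labels speaks of a thymic sample, whereas the other labels name 143B. Of 56140 symbols, 54611 occur in GENCODE 29, which gave identifiers, lengths and GC content. Length and GC content are those of the longest annotated transcript of a gene, which may not be the one expressed. The 1 entry with no gene name held at most 0.00426% of a library's FPKM and was left out.

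The 11944 genes that reached 1 FPKM in 3 or more of the 12 libraries were fitted with limma 3.58.1 in R 4.3.3 on log2(FPKM + 1), with 1 mean per group, trended variances and Benjamini-Hochberg adjustment over all genes tested; 0.05 was the threshold. The p-values measure the spread between these libraries. The 7 comparisons were each treated group against DMSO, the combination against each drug, ceritinib against crenolanib, and the interaction. The correction removed from each library a spline in GC content and in log2 length (5 degrees of freedom each), fitted on 11761 genes (98.5% of those tested). Genes and lists were chosen with earlier results of these data known. The 12 genes with the smallest adjusted p over the DMSO comparisons were given in every library, and up to 6 per pathway list by the same measure, with IFNB1, IFNAR1, IFNAR2, JAK1, TYK2 and IRF3 always. A result for some listed genes is not reported here. IFITM1, STAT2, IFI44 and ISG20 were given in every library after their values were seen. Further pathway genes were named with their levels, also after these were seen. Same-numbered libraries did not vary together (median correlation of deviations -0.00115 over 18 pairs). The limma fit and the GC and length correction were tested on simulated data, and the motif search on made sequences. Alternatives were the pseudocount, the filter, 3 scalings, the correction, the replicate block, robust variances, fits of the compared groups alone, and leaving out each library.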

Additional observations from a re-analysis of the deposited data

Results flagged for a closer look

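The interaction, the test of whether the combination change differs from the sum of the changes with each drug, marked 23 of the 27 tested genes, a share of 85.2% beside 81.5% of all genes tested. Above the sum, on the log2(FPKM + 1) scale and as deposited, were ISG15 (1.93), OASL (1.52), IRF7 (1.14), IFI35 (1.10), IFIT1 (0.99), ISG20 (0.78), IFITM3 (0.71), UBE2L6 (0.59), IFITM2 (0.54), STAT2 (0.43), IRF1 (0.37) and IFI6 (0.36). IFIT1 and ISG20 passed the filter through the combination libraries alone, and OASL through them and 1 crenolanib library. Under the sum were EIF2AK2 (-1.35), DTX3L (-1.27), SAMD9 (-0.99), IFIT5 (-0.96), PARP14 (-0.93), DDX58 (-0.90), SP100 (-0.63), HERC5 (-0.61), IFI44 (-0.58), PLSCR1 (-0.29) and OAS3 (-0.22).

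After the GC and length correction ISG15, OASL, IFIT1, IRF7, IFI35, ISG20, STAT2 and IRF1 stayed above the sum past the threshold, and EIF2AK2, DTX3L, IFIT5 and DDX58 stayed under it. PLSCR1 was then above the sum. With median-of-ratios scaling the calls of OAS3 (-0.04) and PLSCR1 (-0.11) were lost. On the TPM scale that of IFI6 was lost. The IFI6 call was lost when any of ceritinib replicate 2 or 3, crenolanib replicate 2, combination replicate 2 or 3, or DMSO replicate 1 or 2 was left out, with limma adjusted p between 0.0539 and 0.0995.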

How the results depend on the processing

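Each of the 12 libraries was left out in turn, which gave 2268 values over the tested genes and the 7 comparisons. Of these values 40 lost a call and 22 gained one. Among values called in either fit 0 changed sign, while 34 that were called in neither did. Genes called ranged over 8 to 12 (ceritinib), 11 to 13 (crenolanib) and 25 to 26 (combination) over DMSO. For the combination over ceritinib and crenolanib the ranges were 25 to 26 and 23 to 25. They were 11 to 14 for ceritinib over crenolanib, and 22 to 24 for the interaction. With the replicate block 187 of 189 values kept their call, and 2 missed it: IFI44 with ceritinib (0.19, limma adjusted p = 0.0613) and USP18 in the combination over crenolanib (0.20, limma adjusted p = 0.0648). The interaction called 14 genes instead of 23 after the GC and length correction, with or without the replicate block.

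That correction, again with or without the replicate block, changed these signs. Combination over DMSO became 0.25 for HERC5, -0.15 for UBE2L6, -0.16 for IFITM2, 0.37 for DDX58, 0.19 for PLSCR1 and 0.04 for PARP14. Combination over ceritinib became 0.07 for HERC5, -0.22 for UBE2L6, -0.06 for IFITM2, 0.17 for DDX58, 0.30 for PLSCR1 and 0.06 for SAMD9. Combination over crenolanib became -0.01 for USP18, 0.04 for HERC5, 0.05 for IFI44, -0.12 for IFITM2, 0.03 for DDX58, 0.13 for PLSCR1 and 0.06 for PARP14. The interaction became -0.00 for UBE2L6, 0.44 for IFIT2, -0.23 for IFI6, -0.01 for IFITM2 and 0.23 for PLSCR1. Quantile normalization turned combination over DMSO to 0.29 for USP18 and 0.09 for HERC5, combination over ceritinib to 0.03 for OAS3 and 0.00 for PLSCR1, and the interaction to 0.25 for IFIT2 and 0.00 for OAS3. The cause was not tested. A further 31 values called in neither fit changed sign under an alternative that kept all libraries.

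The median change of all genes in combination cells was -0.16 as deposited, -0.34 on the TPM scale and 0.00 with median-of-ratios scaling. Counting noise limits genes near their floor of 3 fragments, which falls with transcript length.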
